A study of Mus musculus with 3 samples.

Results

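The genes described here are 3 Wnt ligands, Wnt2, Wnt5a and Wnt6, and 7 secreted Wnt antagonists, Sfrp1, Sfrp2, Sfrp4, Sfrp5, Wif1, Dkk2 and Dkk3. They were taken by name from the count tables of a single-cell RNA sequencing experiment on mouse melanoma and are 10 of the 36530 features in each table. They were chosen by their levels in each cell cluster and each tumor, so every level and ratio of a member given here is a description of these tumors and carries no test.

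Wnt proteins are secreted lipid-modified ligands that bind Frizzled receptors, and with the co-receptors Lrp5 and Lrp6 they hold beta-catenin out of degradation, while Ror and Ryk receptors carry other Wnt signals. Secreted Frizzled-related proteins (Sfrp) and Wif1 bind the ligands outside the cell, and Dickkopf proteins (Dkk) bind the Lrp co-receptors, with Dkk3 the divergent member of that family. In skin, Wnt signals act on hair follicles, on dermal fibroblasts and on melanocytes, the cells from which melanoma arises.

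Each of the 3 samples was 1 tumor, the first untreated, the second regressed on vemurafenib and the third progressed on vemurafenib, an inhibitor of the mutant Braf kinase. All 3 came from a genetically engineered model on a C57BL/6 background. In the study's methods the alleles of its mice include Braf LSL.V600E and Tyr.CreER, in part with Rosa26 LSL.tdTomato, and the Tyr promoter drives the tamoxifen-activated Cre in melanocytes, so only those cells and their descendants recombine. The labels of these 3 tumors give no age, dose or time on drug, and do not say which mice carried the reporter. Transgene sequence was found in Tumor1 of all 3 tumors, with values given below. With 1 tumor per group, no difference between tumors has a replicate check, cells of 1 tumor are not replicates, and all intervals are 95% intervals for counting error only. Differences between single tumors and those of treatment or outcome cannot be told apart.

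The tables held 4095 cells of the untreated, 3726 of the regressed and 4849 of the progressed tumor, with median totals of 4496, 2658 and 4566 unique molecular identifiers (UMIs) per cell, so the regressed tumor was the shallowest. The authors' cluster names were used: 10 clusters called Stroma held 2628, 1918 and 3422 cells, and the cluster called Tumor1 held 44, 61 and 156. All 7 fibroblast markers were detected in every stroma cluster with at least 10 cells, with summed levels of 28285 to 59794 CPM (UMIs of the gene in 1000000 UMIs of the summed cells) against 5000, 7031 and 5668 CPM in Tumor1. In Tumor1 the 5 melanocyte markers summed to 4.53, 19.9 and 16.9 CPM with Mlana at 0 in all 3 tumors, whereas Sox10, a factor of the neural crest lineage, stood at 730, 814 and 672 CPM. Transgene sequence, which the study used to mark tumor cells, summed to 2692, 1509 and 4275 CPM in Tumor1. Nearly all of it was tWPRE, which was at most 90.0 CPM in any stroma cluster with at least 10 cells. The name Tumor1 is therefore kept as the authors' name for these cells. In the regressed tumor, the red blood cell marker Hbb-bs stood at 1297 to 1488 CPM in Stroma3, Stroma8, Stroma10 and Tumor1, against at most 49.9 CPM in the same clusters of the other tumors. The keratinocyte markers stood at 1000 to 1102 CPM in those stroma clusters against 213 to 289 CPM. The part of these markers, and of the lower depth, in the values of the regressed tumor was not tested.

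The stroma clusters were not shared evenly. In the untreated tumor Stroma2 (43.5% of stroma cells), Stroma4 (22.8%) and Stroma1 (18.0%) led. In the regressed tumor Stroma10 alone held 80.1% and Stroma9 16.2%, so the regressed stroma left without Stroma10 was mostly Stroma9. In the progressed tumor Stroma6 (36.7%), Stroma4 (24.1%) and Stroma5 (22%) led. Only 4 stroma clusters, Stroma3, Stroma4, Stroma6 and Stroma8, had at least 10 cells in every tumor. A level over the summed stroma therefore moves with which clusters a tumor held as well as with the level in each cluster, and both are given below.

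**Figure D1:**
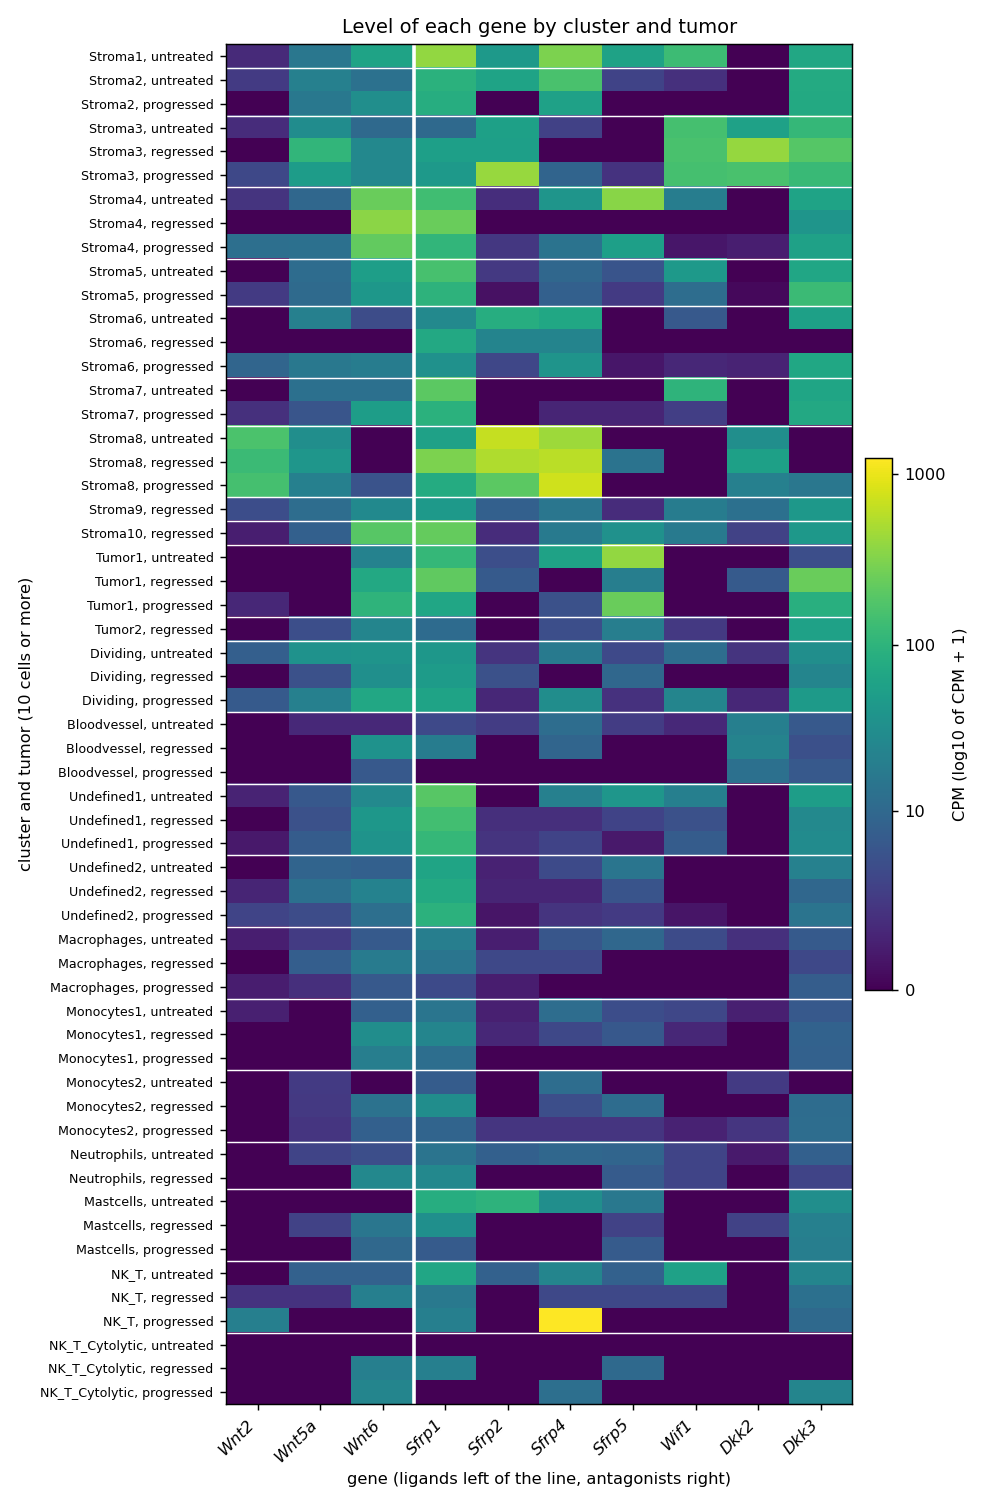
Level of each of the 10 genes (columns, ligands left of the line) in every cluster and tumor with at least 10 cells (rows), as colour for log10 of CPM + 1. Wnt6 and Sfrp5 were high in Stroma4, Wnt2, Sfrp2 and Sfrp4 in Stroma8, and Dkk2 and Wif1 in Stroma3, while Sfrp5 was also high in Tumor1 of the untreated and progressed tumors.

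Most UMIs of all 10 genes lay in the stroma clusters. The stroma share over all tumors was lowest for Sfrp5, at 77.5%, and highest for Sfrp2, at 95.7%. Tumor cells, Tumor1 and Tumor2 together, held 15.5% of the Sfrp5 UMIs, 4.41% of those of Dkk3, 2.92% of those of Wnt6 and at most 1.94% for the other members. Of all 61564400 UMIs of any gene, 38092485 lay in stroma and 1699548 in tumor cells, so a stroma majority is not particular to these genes. In the progressed tumor alone, Sfrp5 lay 50.7% in stroma and 46.3% in tumor cells. The antagonists summed to 556 CPM (interval 544 to 569) in the stroma of the untreated tumor, 320 CPM (306 to 334) in that of the regressed tumor and 236 CPM (229 to 243) in that of the progressed tumor, so the order of the tumors was clear of counting error. The ligands summed to 89.3 CPM (84.4 to 94.4), 168 CPM (159 to 179) and 94.5 CPM (90.0 to 99.1), and the regressed tumor was the high one. These sums were carried by few genes: Wnt6 made up 76.8%, 92.6% and 76.5% of the ligand UMIs, and the leading antagonist was Sfrp1 (29.7% and 59.2%) in the untreated and regressed tumors but Dkk3 (36.8%) in the progressed tumor.

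Wnt6, a ligand best known from epithelia, was found across most clusters. In summed stroma it stood at 68.6 CPM (64.3 to 73.0) in the untreated, 156 CPM (146 to 166) in the regressed and 72.3 CPM (68.4 to 76.4) in the progressed tumor, from 965, 1002 and 1272 UMIs. The regressed tumor stood above both others, whose intervals overlapped. The log2 ratio was 1.19 (1.06 to 1.31) for regressed over untreated and -1.11 (-1.23 to -0.99) for progressed over regressed. It was found in 22.8%, 32.0% and 22.1% of stroma cells, and in 7.27%, 13.8% and 7.94% after each cell had been thinned to 1000 UMIs. Macrophages, taken as cells that should lack these genes (median totals 3429, 1388 and 3450 UMIs, against 4654, 3152 and 4388 UMIs in stroma), had a Wnt6 UMI in 2.56%, 3.50% and 1.47% of cells. The stroma shares were thus well above that level.

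Within clusters the picture for Wnt6 was different. Stroma4 held 243 CPM (224 to 263), 364 CPM (166 to 690, from 9 UMIs in 20 cells) and 222 CPM (207 to 237), so its intervals overlapped across all 3 tumors. In Stroma10 of the regressed tumor Wnt6 stood at 196 CPM (184 to 209, 952 of the 1002 stroma UMIs). Elsewhere it was 61.0 CPM in Stroma1 and 13.4 CPM in Stroma2 of the untreated tumor, and 53.9 and 43.0 CPM in Stroma5 of the untreated and progressed tumors. Without Stroma10 the ratio of regressed over untreated turned to -1.10 and that of progressed over regressed to 1.18, so both directions for Wnt6 rested on that cluster. With trimmed mean scaling (TMM), which shifted every ratio of regressed over untreated by -0.25, it was 0.94, short of a 2-fold difference.

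Wnt5a, the main ligand of the beta-catenin-independent branch and one linked to invasive melanoma cells, was spread thinly. Stroma held 17.6 CPM (15.5 to 20) in the untreated, 9.49 CPM (7.26 to 12.2) in the regressed and 13.9 CPM (12.2 to 15.8) in the progressed tumor. The regressed tumor was lowest, by 0.89 on the log2 scale against the untreated tumor (-1.32 to -0.48), which is less than 2-fold. With TMM the ratio was -1.14. In Stroma3 it stood at 31.1 CPM (21 UMIs), 108 CPM (4 UMIs) and 50.8 CPM (28 UMIs), the last 2 being the highest values of the regressed and progressed tumors. In the untreated tumor the Dividing cluster, at 36.7 CPM (19 UMIs), and Stroma8, at 32.8 CPM (4 UMIs), were above Stroma3 with overlapping intervals. In Tumor1 no cell of any tumor had a Wnt5a UMI, and 3 UMIs, the floor used here for a count of 0, would be 13.6, 19.9 and 3.62 CPM.

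Wnt2, a ligand of the beta-catenin branch made by mesenchymal cells, was rare outside a single cluster. In Stroma8 it stood at 164 CPM (100 to 254) in the untreated, 126 CPM (57.4 to 238) in the regressed and 152 CPM (102 to 219) in the progressed tumor, with a UMI in 10 of 23, 5 of 18 and 12 of 21 cells. The Stroma8 levels of the 3 tumors thus overlapped. In all stroma the levels were 3.13 CPM (2.27 to 4.20), 2.96 CPM (1.78 to 4.62) and 8.24 CPM (6.96 to 9.70), and the progressed tumor stood above the others by a log2 ratio of 1.40 (0.90 to 1.92) over untreated and 1.48 (0.78 to 2.25) over regressed. The additional UMIs lay outside Stroma8: Stroma4 went from 1.94 CPM (5 UMIs) in the untreated to 12.5 CPM (46 UMIs) in the progressed tumor, a log2 ratio of 2.69 (1.36 to 4.38), and Stroma6 of the progressed tumor held 52 UMIs at 9.14 CPM. Only 4% of progressed Stroma4 cells had a Wnt2 UMI, against 0.295% of the macrophages of that tumor, both unthinned. After thinning the Stroma4 share was 0.246%, and 0 of the 665 thinned cells of all immune clusters of that tumor had one. Without Stroma10, progressed over regressed turned to -0.21.

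Among the antagonists, the Sfrp members bind Wnt ligands through a domain like that of the Frizzled receptors. Sfrp1 had 6148 UMIs in all. Stroma stood at 165 CPM (158 to 172), 189 CPM (179 to 200) and 78.1 CPM (74.0 to 82.4) in the untreated, regressed and progressed tumors. The progressed tumor was low against both others, with log2 ratios of -1.08 (-1.18 to -0.98) over untreated and -1.28 (-1.39 to -1.17) over regressed. The share of stroma cells with a UMI was 37.7%, 36.4% and 25.9%, or 11.9%, 14.5% and 8.03% after thinning, against 5.13%, 2.80% and 1.47% of macrophages unthinned.

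Cluster by cluster, Sfrp1 stood at 396 CPM (374 to 420) in Stroma1 of the untreated tumor, at 231 CPM (217 to 245) in Stroma10 of the regressed tumor and at 140 CPM (126 to 155) and 108 CPM (97.6 to 119) in Stroma4 of the untreated and progressed tumors. The 2 clusters with most Sfrp1 UMIs, Stroma1 and Stroma10, were each found almost in a single tumor. Over the 4 shared clusters at equal weight, the ratio of progressed over untreated was 0.19 rather than -1.08, and without Stroma10 that of progressed over regressed was 0.35. Within clusters the ratio of progressed over untreated was -0.37 (-0.58 to -0.16) in Stroma4, -0.64 (-0.87 to -0.40) in Stroma5 and -1.12 (-1.86 to -0.28) in Stroma7, against 2.13 in Stroma3 (25 against 7 UMIs), 0.38 (-0.43 to 1.31) in Stroma6 and 0.46 (-0.92 to 1.99) in Stroma8. The clusters thus did not share a direction. With TMM progressed over regressed was -0.97. In Stroma8 the regressed value of 307 CPM rested on 1 cell, which held 17 of 22 UMIs.

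Sfrp2 was concentrated in few cells. Stroma held 46.7 CPM (43.2 to 50.5), 9.18 CPM (6.99 to 11.8) and 16.8 CPM (14.9 to 18.8), from 658, 59 and 295 UMIs. The untreated tumor was the high one, with log2 ratios of -2.35 (-2.76 to -1.96) for regressed and -1.48 (-1.68 to -1.28) for progressed over untreated. The 10 stroma cells with most Sfrp2 held 48.3%, 71.2% and 86.8% of its stroma UMIs, and in the progressed tumor 189 UMIs, 62.2% of all its Sfrp2 UMIs, came from 1 Stroma3 cell with a total of 29893 UMIs. Without the cell with most UMIs in each tumor, progressed over untreated was -2.78.

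Stroma8 was the cluster in which Sfrp2 was found most regularly, at 665 CPM (528 to 826) in the untreated, 530 CPM (375 to 728) in the regressed and 205 CPM (146 to 280) in the progressed tumor, with a UMI in 73.9%, 50% and 42.9% of its cells. The progressed tumor was below both others there, by log2 ratios of -1.70 (-2.29 to -1.13) over untreated and -1.37 (-2.05 to -0.69) over regressed. Stroma6 showed the same order with 84.4 CPM in the untreated (40 UMIs in 6 cells) and 3.51 CPM in the progressed tumor (20 UMIs in 15 cells), a log2 ratio of -4.59 (-5.44 to -3.78). Without the top cell of each tumor the untreated value was 38.7 CPM and the ratio -3.87 (-4.97 to -2.8). Stroma3 went the other way, from 56.3 to 410 CPM, a log2 ratio of 2.86, which was 1.88 without the top cell of each tumor. Its UMIs came from 7 cells in the untreated and 9 in the progressed tumor.

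Sfrp4, a further Frizzled-related antagonist, was a gene of the untreated stroma. Its level was 147 CPM (140 to 153) in the untreated, 23.7 CPM (20 to 27.7) in the regressed and 26.7 CPM (24.3 to 29.2) in the progressed tumor, where the last intervals overlapped. The log2 ratios over untreated were -2.63 (-2.88 to -2.39) and -2.46 (-2.61 to -2.31). Stroma cells with a UMI made up 26.2%, 3.28% and 6.55%, or 10.2%, 1.15% and 1.65% after thinning, and macrophages 1.92%, 0.70% and 0%.

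The high stroma level of Sfrp4 in the untreated tumor lay in Stroma1 with 307 CPM (288 to 328) and Stroma2 with 162 CPM (152 to 173), clusters with few cells in the other tumors. Stroma8 kept a high level in all 3 tumors, at 443 CPM (333 to 578), 586 CPM (422 to 792) and 736 CPM (619 to 869), with the untreated tumor lowest where in the stroma sum it was highest, although 22 of the 42 regressed UMIs came from 1 cell. In Stroma4 the progressed tumor was lower, at 14.2 against 39.6 CPM, with a log2 ratio of -1.48 (-1.99 to -0.99). Over the 4 shared clusters at equal weight the ratios over untreated were 0.14 for regressed and 0.52 for progressed, values that rested on Stroma8, with 18 regressed and 21 progressed cells. There progressed over untreated was 0.73 (0.27 to 1.21), whereas it was -1.49 (-2.81 to -0.44) in Stroma2 and -0.86 (-1.39 to -0.28) in Stroma6.

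Sfrp5 stood out for its tumor cells. In stroma it stood at 77.9 CPM (73.3 to 82.6) in the untreated, 27.4 CPM (23.5 to 31.8) in the regressed and 12.4 CPM (10.9 to 14.2) in the progressed tumor, with no overlap. The log2 ratios were -1.51 (-1.74 to -1.28) for regressed over untreated, -1.14 (-1.43 to -0.84) for progressed over regressed and -2.64 (-2.86 to -2.43) for progressed over untreated. Stroma4 carried most of it, with 348 CPM (325 to 371) in the untreated and 54.5 CPM (47.2 to 62.6) in the progressed tumor, a log2 ratio of -2.67 (-2.90 to -2.45) within 1 cluster. That cluster had a Sfrp5 UMI in 27.0% and 7.38% of its cells, or 14.7% and 4.05% after thinning. The 20 Stroma4 cells of the regressed tumor had none, with 0 to 149 CPM as the interval. Without Stroma10 progressed over regressed turned to 2.70. That value rested on few regressed UMIs: Stroma10 held 80.5% of that tumor's 215 Sfrp5 UMIs, where all stroma held 81.9%.

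Wif1, an antagonist with its own Wnt-binding domain, was also highest in the untreated stroma. It stood at 44.5 CPM (41.1 to 48.2), 18.1 CPM (14.9 to 21.7) and 9.21 CPM (7.85 to 10.7) in the untreated, regressed and progressed tumors, with no overlap, and the log2 ratios over untreated were -1.30 (-1.60 to -1.01) and -2.27 (-2.53 to -2.02). In Stroma3 it did not follow that order, with 151 CPM (123 to 183), 162 CPM (6 UMIs) and 151 CPM (120 to 187). However, 35 of the 83 progressed UMIs came from 1 cell. Without the cell with most UMIs in each tumor, the untreated and progressed values were 134 and 87.8 CPM, a log2 ratio of -0.61 (-1.14 to -0.08). In Stroma5 Wif1 was 45.5 CPM in the untreated and 11.7 CPM in the progressed tumor, a log2 ratio of -1.95 (-2.48 to -1.42), and in Stroma4 it was 19.4 CPM (50 UMIs) and 0.55 CPM (2 UMIs). Stroma1 of the untreated tumor held 133 CPM (121 to 147), or 38.6% of all Wif1 UMIs. In the regressed tumor 71.6% of the stroma UMIs came from 10 cells.

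Dkk2, which binds Lrp5 and Lrp6, had 233 UMIs in all, of which 61.4% were in Stroma3. That cluster held 57.8 CPM (41.1 to 79.0, 39 UMIs) in the untreated, 406 CPM (227 to 669, 15 UMIs) in the regressed and 161 CPM (130 to 199, 89 UMIs) in the progressed tumor, with no overlap. A UMI was found in 15%, 50% and 33% of its 120, 12 and 88 cells, or 4.27%, 30% and 11.5% after thinning. The log2 ratios in Stroma3 were 2.81 (1.85 to 3.70) for regressed and 1.48 (0.92 to 2.06) for progressed over untreated. Over all stroma the values were 3.05 CPM (2.21 to 4.11), 8.09 CPM (6.04 to 10.6) and 5.86 CPM (4.78 to 7.10), and only regressed over untreated was past 2-fold, at 1.41 (0.80 to 2.02). In the regressed tumor 10 cells held 94.2% of the stroma UMIs, and 14 UMIs came from 1 Stroma10 cell.

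Dkk3, whose binding partners are less settled, was the evenly spread antagonist. Stroma held 72.3 CPM (67.9 to 76.9), 44.2 CPM (39.2 to 49.7) and 86.6 CPM (82.3 to 91.1), and no ratio between tumors reached 2-fold, the widest being 0.97 (0.79 to 1.16) for progressed over regressed, or 1.28 with TMM. Its 10 top cells held 5.89%, 10.9% and 3.48% of its stroma UMIs. In Stroma5 it stood at 66.0 CPM (52.9 to 81.4) in the untreated and 126 CPM (117 to 136) in the progressed tumor. Stroma8 held 0, 0 and 3 UMIs of it, although it held the top stroma levels of Wnt2, Sfrp2 and Sfrp4 in the untreated tumor.

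**Figure D2:**
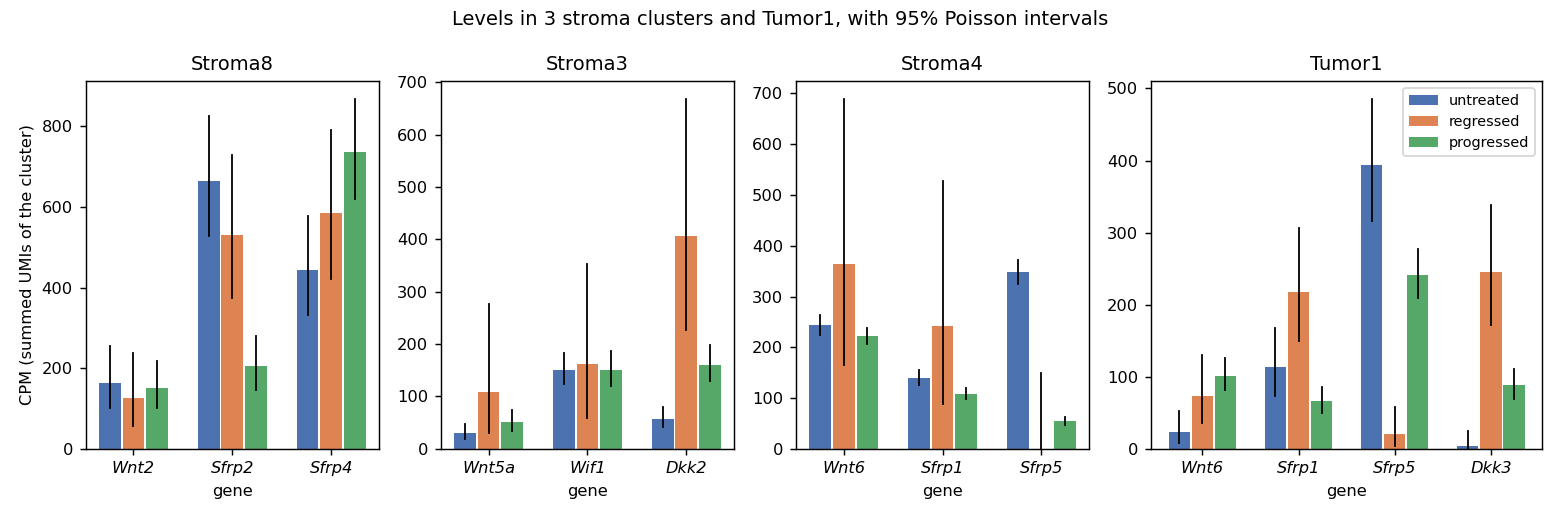
Level (CPM, vertical axis) of selected members in Stroma8, Stroma3, Stroma4 and Tumor1, with 1 bar per tumor and lines for the 95% Poisson interval. Wnt2 in Stroma8, Wif1 in Stroma3 and Wnt6 in Stroma4 overlap across tumors, whereas Sfrp5 in Stroma4 stands at 348 CPM in the untreated and 54.5 CPM in the progressed tumor and Dkk2 in Stroma3 is lowest in the untreated tumor at 57.8 CPM. Of the 83 Wif1 UMIs in Stroma3 of the progressed tumor, 35 came from 1 cell.

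Counted over the stroma, a member was called where its ratio was at least 2-fold and its interval left out equality, and all 10 members had the minimum of 10 UMIs in both tumors together. Regressed over untreated, 2 of the 10 were higher (Wnt6 and Dkk2), where 14.2% of all 16366 features tested were higher, and 4 were lower (Sfrp2, Sfrp4, Sfrp5 and Wif1), where 6.06% were lower. Progressed over regressed, 1 was higher (Wnt2; 3.94% of all features) and 3 were lower (Wnt6, Sfrp1 and Sfrp5; 16.5% of all features), a split that TMM, which shifted these ratios by 0.31, turned to 3 higher (Wnt2, Sfrp2 and Dkk3) and 0 lower. Progressed over untreated, 1 was higher (Wnt2; 3.24%) and 5 were lower (Sfrp1, Sfrp2, Sfrp4, Sfrp5 and Wif1; 5.62%), and TMM gave the same 6. The median log2 ratio of the members was -0.80, -0.15 and -0.71 in these comparisons, against 0.16, -0.23 and -0.06 over all features tested. The comparisons share tumors, and since the same values chose the members, nothing is read from these counts.

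**Figure D3:**
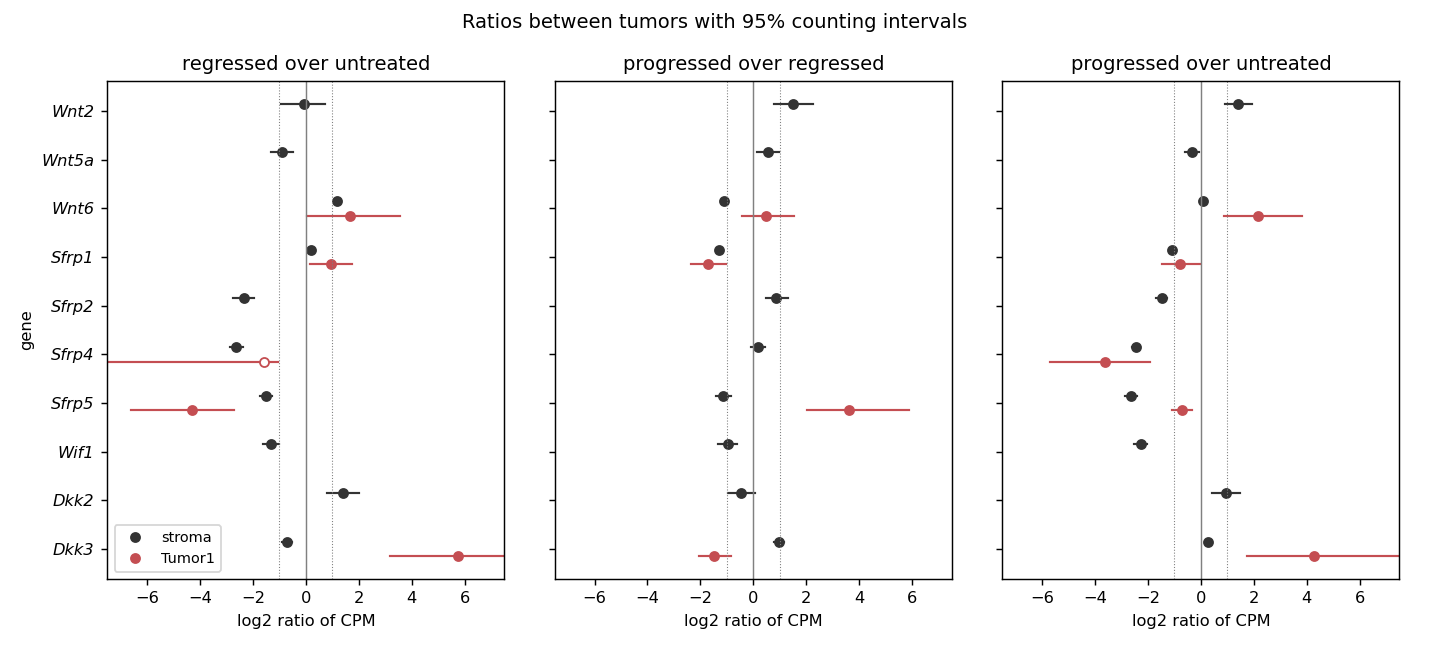
Log2 ratio of each member between pairs of tumors in the summed stroma clusters and in Tumor1, with 95% intervals for counting error, an open point for a bound and dotted lines at 2-fold either way (intervals wider than the axis run off it). In stroma, Sfrp2, Sfrp4, Sfrp5 and Wif1 lie below the lower line for regressed and for progressed over untreated, and Wnt2 above the upper line for progressed over untreated.

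In Tumor1 few of the members were found at a level that allowed a comparison. Sfrp5 stood at 394 CPM (316 to 486, 87 UMIs in 20 of 44 cells) in the untreated, 19.9 CPM (3 UMIs in 3 of 61 cells) in the regressed and 241 CPM (209 to 277, 200 UMIs in 71 of 156 cells) in the progressed tumor. The regressed tumor was the low one, with log2 ratios of -4.31 (-6.62 to -2.72) over untreated, and of 3.60 (2.04 to 5.89) for progressed over it. Regressed Tumor1 cells were shallower, with a median total of 1712 UMIs against 3772 and 4721, but at an equal 1000 UMIs per cell the order was the same, with a Sfrp5 UMI in 29.3% (12 of 41), 0% (0 of 45, upper bound 7.87%) and 22.5% (34 of 151) of the cells. Progressed and untreated Tumor1 differed by less than 2-fold (-0.71), where the stroma of the same tumors differed by -2.64. In Tumor2, a cluster found mainly in the regressed tumor (349 cells), Sfrp5 was at 20.2 CPM.

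Dkk3 in Tumor1 had 1, 37 and 73 UMIs, in 1, 6 and 18 cells, or 4.53, 245 (172 to 338) and 88.1 CPM (69.1 to 111). Both treated tumors were higher than the untreated one, with log2 ratios of 5.76 (3.19 to 11.1) and 4.28 (1.76 to 9.60), wide because the untreated tumor had 1 UMI. With Tumor2 included, where 3 of the 4 untreated cells held 6 Dkk3 UMIs, the ratio of regressed over untreated was 1.99 (0.87 to 3.37). Wnt6 in Tumor1 stood at 22.7 CPM (5 UMIs), 72.8 CPM (11 UMIs) and 101 CPM (80.9 to 126, 84 UMIs), higher in both treated tumors by 1.68 (0.04 to 3.56) and 2.16 (0.88 to 3.82). With TMM the first of these was 1.55 and its interval reached equality.

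Sfrp1 in Tumor1 was 113 CPM (73.3 to 167), 218 CPM (150 to 307) and 66.4 CPM (50 to 86.4), and progressed over regressed stood at -1.72 (-2.37 to -1.05), which became 0.07 with Tumor2 included. The 13 Sfrp4 UMIs of the untreated Tumor1 all came from 1 cell, and without it no Sfrp4 call remained. Wnt2, Sfrp2 and Dkk2 had at most 1 UMI in any Tumor1, and Wnt5a and Wif1 had 0 in all 3. Of the members with at least 10 UMIs, 2 of 5 were higher (9.04% of all features) and 2 lower (6.79%) for regressed over untreated, 1 of 4 higher (5.23%) and 2 lower (8.51%) for progressed over regressed, and 2 of 5 higher (4.1%) and 1 lower (4.58%) for progressed over untreated. When every cell was thinned to 1000 UMIs, 1 call of the 4 for regressed over untreated (Sfrp5) and 0 of the 3 for progressed over untreated were left.

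Set side by side within each tumor, stroma and Tumor1 differed in their members. In the untreated tumor, stroma was higher for Wnt6 (log2 ratio 1.60, interval 0.37 to 3.22), Sfrp2 (3.37, 0.88 to 8.67), Sfrp4 (1.32, 0.54 to 2.23) and Dkk3 (4.0, 1.51 to 9.3). The Sfrp2 and Dkk3 ratios are wide because Tumor1 had 1 UMI of each. Wif1 was at least 3.28-fold higher in stroma, and Sfrp5 was lower there (-2.34, interval -2.66 to -2.01). In the regressed tumor only Wnt6 (1.10, interval 0.25 to 2.11) was higher and only Dkk3 (-2.47, interval -2.97 to -1.93) lower among those past 2-fold. In the progressed tumor, stroma was higher for Wnt2 (2.77, interval 0.27 to 8.08, with 1 UMI in Tumor1) and Sfrp4 (2.46, interval 1.10 to 4.35). It was also higher for Wnt5a (at least 3.85-fold), Sfrp2 (at least 4.63-fold) and Wif1 (at least 2.54-fold), and lower for Sfrp5 (-4.28, interval -4.56 to -3.99).

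No member kept a 2-fold difference one way in every tumor: 0 of 10 were higher in stroma, where 2.5% of 13660 features were, and 0 of 10 higher in Tumor1, where 3.56% were. The first of these counts was limited by depth. In the regressed tumor Wnt2, Wnt5a, Sfrp2, Sfrp4, Wif1 and Dkk2 stood at 2.96 to 23.7 CPM in stroma, while 3 UMIs in Tumor1 were 19.9 CPM. These genes could not be called higher in stroma there, so the count says nothing about them. In the untreated and progressed tumors alone, Sfrp2, Sfrp4 and Wif1 were higher in stroma and Sfrp5 in Tumor1 in both. The stroma side of the Sfrp5 difference hid a cluster at tumor-cell level: Stroma4 of the untreated tumor differed from Tumor1 by a log2 ratio of only -0.18 (-0.50 to 0.15), and that of the progressed tumor by -2.15 (-2.44 to -1.86).

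**Figure D4:**
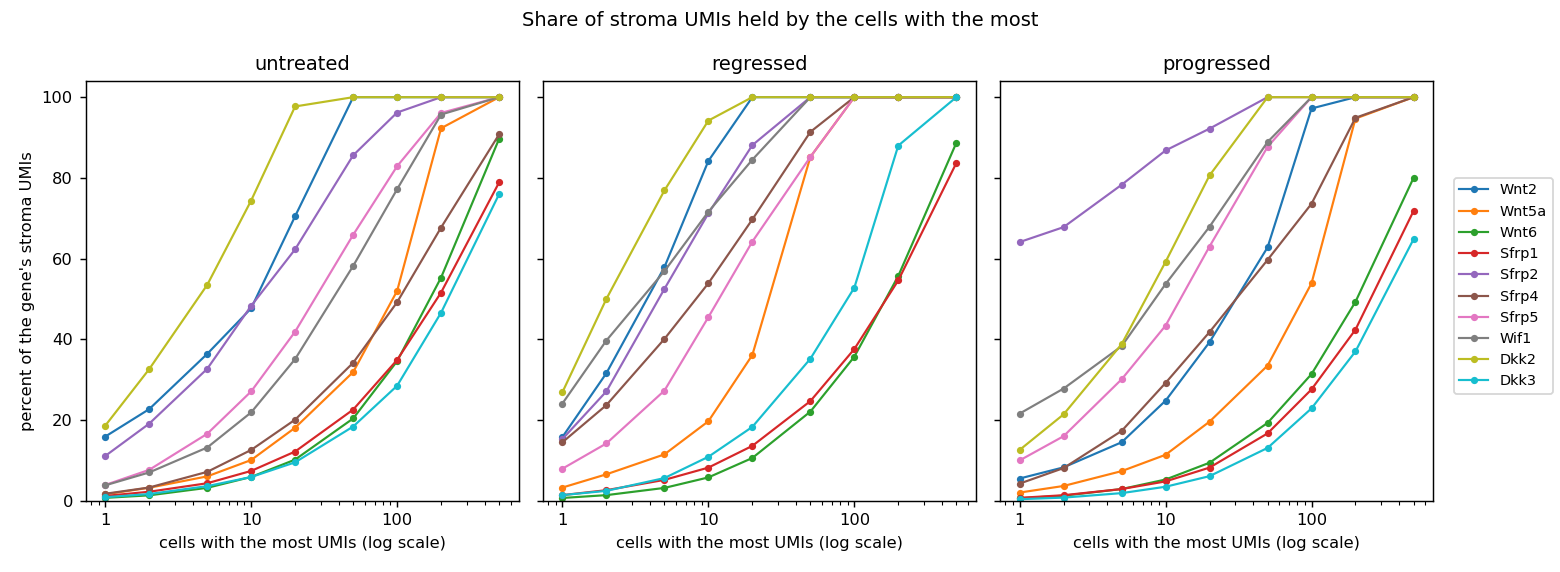
Cumulative share of each member's stroma UMIs (vertical axis, percent) held by the cells with most UMIs, ranked from the highest (horizontal axis, number of cells, log scale), with 1 panel per tumor and 1 line per gene. Wnt6, Sfrp1 and Dkk3 climb slowly, with under 11% in the 10 top cells, whereas Sfrp2 of the progressed tumor starts at 64.1% in its first cell.

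The members thus lay in different cells of the stroma, and the pairs found in the same rare clusters are shown with the sequence before their start sites. Stroma3 held the highest Dkk2 and Wif1 levels of each tumor, although for Wif1 the interval of Stroma1 in the untreated tumor overlapped, and Stroma8 those of Wnt2. In Stroma3 cells with a Wif1 UMI, Dkk2 was found in 31.2% of the untreated, 75.0% of the regressed (3 of 4 cells) and 50% of the progressed cells, against 9.09%, 37.5% and 29.2% of the others. After thinning, the untreated and progressed shares were 8.33% against 3.81% and 14.3% against 11.2%, each resting on 1 cell with both. In Stroma3 the dermal papilla and sheath markers summed to 360, 541 and 613 CPM, with Crabp1 at 28.1, 298 and 377 CPM. Acta2 stood at 145, 81.2 and 343 CPM. Crabp1, like Dkk2, was lowest in the untreated tumor, but the other dermal papilla and sheath markers together were highest there. The order of the sum thus came from Crabp1 alone. The part of these markers in the Dkk2 difference was not tested.

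The windows of 250 bases before the start that RefSeq's promoter table uses for both Stroma3 genes follow, on the plus strand of GRCm38.p6, with every match to a TATA box (TATAAA on either strand) in capitals. The Wif1 window (chr10:121033754-121034003) ends where the gene, at chr10:121034004-121100642, begins, and holds 1 match on the reverse strand, 232 to 227 bases before the start. The Dkk2 window (chr3:132085042-132085291) reaches into the annotated span of the gene (chr3:132085266-132180304), which begins upstream of the start used in that table, and holds 1 match 32 to 27 bases before that start.
Wif1: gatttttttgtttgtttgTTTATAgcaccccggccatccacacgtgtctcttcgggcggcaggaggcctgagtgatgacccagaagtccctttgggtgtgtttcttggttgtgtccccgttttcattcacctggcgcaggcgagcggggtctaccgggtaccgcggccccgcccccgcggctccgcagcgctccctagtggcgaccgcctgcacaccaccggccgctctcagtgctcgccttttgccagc
Dkk2: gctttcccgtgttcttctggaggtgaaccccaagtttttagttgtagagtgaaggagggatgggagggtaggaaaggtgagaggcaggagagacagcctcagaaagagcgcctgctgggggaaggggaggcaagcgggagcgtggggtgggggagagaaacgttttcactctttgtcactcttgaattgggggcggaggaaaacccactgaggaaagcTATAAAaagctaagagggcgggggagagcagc

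Wnt2 and Sfrp2, which were both found in Stroma8, are shown in the same way, each read 5′ to 3′ on its gene's strand. Sfrp2 was highest in Stroma8 in the untreated and regressed tumors only. In the progressed tumor it was 410 CPM in Stroma3, with 189 of 226 UMIs in 1 cell, against 205 CPM in Stroma8. The Wnt2 window is the minus strand of chr6:18030446-18030695, inside the span of the gene (chr6:17985474-18032772), and the Sfrp2 window the plus strand of chr3:83766071-83766320 (gene at chr3:83765750-83774314).
Wnt2: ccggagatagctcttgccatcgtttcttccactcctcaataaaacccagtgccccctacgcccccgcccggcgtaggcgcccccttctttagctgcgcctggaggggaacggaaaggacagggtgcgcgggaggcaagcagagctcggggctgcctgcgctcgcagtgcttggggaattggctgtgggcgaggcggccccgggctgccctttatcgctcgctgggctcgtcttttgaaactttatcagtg
Sfrp2: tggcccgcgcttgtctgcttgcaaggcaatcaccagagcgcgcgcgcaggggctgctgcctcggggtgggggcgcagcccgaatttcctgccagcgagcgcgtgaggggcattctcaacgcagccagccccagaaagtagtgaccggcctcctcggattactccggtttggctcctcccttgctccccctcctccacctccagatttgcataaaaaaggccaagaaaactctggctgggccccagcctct

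Neither the Wnt2 nor the Sfrp2 window held a TATA box, and none of the 4 windows held an AP-1 site (TGANTCA) or a TCF/LEF site (CTTTGA) on either strand. Over all 32851 windows of this length, 12.4% held the TATA box, 6.7% the AP-1 site and 13.8% the TCF/LEF site. The GC content was 62.8% for Wif1, 55.6% for Dkk2, 63.6% for Wnt2 and 63.6% for Sfrp2, against a median of 52.4%. A match is a description of the letters and not a site in use, and 6 of the 10 members had such a window. The genes without a printed window lie at chr14:28504543-28527448 (Wnt5a), chr1:74754342-74785322 (Wnt6), chr8:23411383-23449632 (Sfrp1), chr13:19623175-19632825 (Sfrp4), chr19:42197971-42202252 (Sfrp5) and chr7:112116019-112159482 (Dkk3) of the same build, by the RefSeq annotation.

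The genes whose levels were most like those of each member, by Pearson r of log2(CPM + 10) over the 53 groups of cluster and tumor with at least 20 cells, are given as a description, since the groups share libraries and depth. For Wnt2 they were Gm31378 (r = 0.906), Smpd3 (0.892) and Sdk1 (0.889), and for Sfrp4 Prg4 (0.813), Snhg11 (0.808) and again Sdk1 (0.800), whose top group was Stroma8 of the progressed tumor. For Sfrp2 they were Ccn5 (0.900), Lox (0.873), the enzyme that crosslinks collagen and elastin, and Mfap4 (0.833), and for Dkk2 Tmem132c (0.863), Eln, which encodes elastin (0.820), and Mfap4 (0.770). Wnt5a was most like Tpbg (0.846), a membrane protein known to modulate Wnt signals, Mrc2 (0.795) and Ddr2 (0.795), a collagen receptor. Wnt6 was most like Sbspon (0.820), Tln2 (0.819) and Gfra1 (0.792), and Dkk3 like Ltbp3 (0.829), Mdk (0.770) and Sh3pxd2a (0.762). Sfrp1 (Acbd4, 0.790; Gpc4, 0.753; C630043F03Rik, 0.751), Sfrp5 (Atp6v0e2, 0.678; Mapt, 0.655; Zfp536, 0.620) and Wif1 (Sertad4, 0.676; agouti, 0.660) had looser partners.

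Other genes of the pathway, a list of 61 ligands, antagonists, secretion factors, R-spondins, receptors and targets, were read in the same stroma sums. Of 44 with enough UMIs, 14 were higher and 3 lower for regressed over untreated, against 14.2% and 6.06% of all features. Progressed over regressed, 5 of 43 were higher and 9 lower, against 3.94% and 16.5%. Progressed over untreated, 8 of 42 were higher and 2 lower, against 3.24% and 5.62%. Among the ligands Wnt10a was 14.2, 28.5 and 11 CPM and Wnt4 1.92, 5.29 and 1.42 CPM, both high in the regressed tumor as Wnt6 was. Wnt9a, at 4.48, 3.89 and 3.47 CPM, stayed within 2-fold, and Wnt5b, at 1.85, 1.25 and 3.30 CPM, was lowest in the regressed tumor. The top group of Wnt10a was Undefined2 of the progressed tumor (151 CPM). Among the antagonists Frzb, a further Frizzled-related protein, was 25.6, 19.1 and 53.8 CPM, so the progressed tumor was its high one, which it was for none of the 4 Sfrp members. Sostdc1 was 0.78, 8.87 and 4.78 CPM, higher in both treated tumors, and its top group was Undefined1 of the regressed tumor at 548 CPM. The part of the keratinocyte markers, higher in the regressed stroma, in these values was not tested.

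For the rest of the pathway, Wls, which carries Wnt proteins to the cell surface, was 152, 165 and 150 CPM and no ratio reached 2-fold, as for Porcn (16.6, 11.1 and 12.3 CPM), the enzyme that attaches their lipid. The R-spondins strengthen Wnt signals at the receptor. Rspo3 was 7.67, 7 and 5.63 CPM and within 2-fold, and Rspo1, at 0.64, 1.71 and 1.88 CPM, was past 2-fold over untreated in both treated tumors. The receptors Fzd1 (237, 144 and 188 CPM), Fzd2 (88.5, 100 and 53.0 CPM), Lrp6 (71.5, 70.5 and 60.8 CPM) and Ryk (75.7, 49.5 and 63.7 CPM) stayed within 2-fold.

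Of the targets, Myc (31.5, 14.0 and 76.1 CPM) and Ccnd1 (113, 80.3 and 185 CPM), which many other signals also drive, were highest in the progressed tumor. In Tumor1, Wnt4 was the high ligand of the list, at 31.7, 159 and 247 CPM, and both treated tumors were past 2-fold above the untreated one. Of the 61 listed genes, 4 (Wnt4, Tcf7, Nkd2 and Ccnd1) were higher in Tumor1 than in stroma in every tumor, against 3.56% of 13660 features. Fzd2 was the 1 gene higher in stroma in every tumor, against 2.5% of features. All 5 are named for that count. Not all 61 had enough UMIs to be called, and nothing is read from these counts.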

How the data were processed

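Cells of 3 mouse melanomas were captured with the 10x Chromium 3′ kit, which reads the end of each transcript. According to the study's methods and the submitters' processing notes, the authors aligned reads with GSNAP to GRCm38, kept uniquely mapped reads that overlap exons in sense, collapsed molecular identifiers, left out cells under 300 UMIs and clustered the rest with Seurat 2.2.0. The deposited tables hold raw UMI counts per gene and cell, and the deposited cell annotation gives the authors' cluster name and a UMI total for each cell. The column sums used here exceeded the sums of those totals by 4.42 to 6.09%. No cell name occurs in more than 1 table (0 shared), and the names are not barcodes, so shared barcodes could not be counted. No doublet caller was run. Features are Entrez identifiers, of which 31049 of 36530 matched a symbol.

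The 10 members, the pathway list and the marker lists were chosen with earlier results of these data known. UMIs were summed per cluster and tumor and scaled to CPM (per 1000000 summed UMIs), with exact Poisson 95% intervals, and shares of cells have exact Clopper-Pearson intervals. Ratios have exact conditional binomial intervals. A call needed at least 10 UMIs in both groups together, a ratio of at least 2-fold and an interval that leaves out equality, and a count of 0 was set to a floor of 3 UMIs per group, which gives a bound. UMIs correct for copies made in PCR, but intervals and floors cover counting error only. Cells were also thinned to 1000 UMIs. Named were all 10 members, the 3 features with the highest Pearson r to each over groups of at least 20 cells (among features with at least 100 UMIs), and from the pathway list the 3 with the highest level in stroma and in Tumor1 for each role. Library totals were 22202192, 12413268 and 26948940 UMIs in the untreated, regressed and progressed tumors. The ratio and call rule was tried on simulated Poisson counts with known changes. That is the error the intervals assume, so the trial does not cover genes whose UMIs lie in few cells. Python 3.11.15, numpy 2.4.6, scipy 1.17.1, pandas 2.3.3, matplotlib 3.10.9, R 4.3.3 and edgeR 4.0.16 (for TMM factors) were used. The alternatives tried were other scaling, thinning, cell filters, cluster choices and no minimum of UMIs. One allele of the model, 1 marker and 1 of the features named by the rule are not reported here.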

Additional observations from a re-analysis of the deposited data

Results flagged for a closer look

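Members whose ratio went opposite ways in different cells are given first, and in each case the difference between the cells was not tested. For progressed over untreated, Sfrp1 had a log2 ratio of 2.13 in Stroma3 (25 against 7 UMIs) and -1.12 in Stroma7, where leaving out the cell with most UMIs in each tumor moved it to -1.0 and ended the call. Sfrp2 stood at 2.86 in Stroma3, -4.59 in Stroma6 and -1.70 in Stroma8 for the same tumors, and for progressed over regressed at 2.92 in Stroma3, where the regressed tumor had 2 UMIs and 189 of the 226 progressed UMIs lay in 1 cell, and at -1.37 in Stroma8. Sfrp5 for progressed over regressed stood at -1.14 in stroma and 3.60 in Tumor1, and the stroma value was 2.70 without Stroma10. The last value rested on few regressed UMIs, since Stroma10 held 80.5% of that tumor's Sfrp5 UMIs and all stroma 81.9%.

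Members were also found in clusters outside the comparisons, at levels whose intervals lay above that of the same tumor's summed stroma. Wnt5a reached 36.7 CPM (22.1 to 57.3) in the Dividing cluster of the untreated tumor, in 12 of 43 cells. Sfrp1 reached 115 CPM (99.1 to 133) in Undefined1 and 97.2 CPM (84.3 to 112) in Undefined2 of the progressed tumor. Wif1 in the Dividing cluster of the progressed tumor was 24.9 CPM, with 18 of its 42 UMIs in 1 cell. Dkk2 in Bloodvessel cells of the untreated tumor was 20.5 CPM (11.7 to 33.4, 16 UMIs in 10 of 74 cells). Sfrp4 in the NK_T cluster of the progressed tumor was 1243 CPM, all 121 UMIs in 1 of 17 cells, which had 7236 UMIs in total, 59 Col1a1 UMIs, 1 Ptprc UMI, 6 Cd3e UMIs and 2 Wnt2 UMIs.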

How the results depend on the processing

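No paired analysis was possible because each group held 1 tumor. The main calls of single members were met 228 times under the alternatives, and 186 times the call was the same, 32 times it was lost in the same direction and 10 times the direction turned, while 17 calls were new. The alternative without a minimum of UMIs could not lose a main call, so its part of the 186 was fixed in advance. Weighting the 4 shared stroma clusters equally gave 3 members past 2-fold in place of 6 for regressed over untreated, 1 in place of 4 for progressed over regressed and 2 in place of 6 for progressed over untreated. It turned Sfrp4 to 0.14 (regressed over untreated) and 0.52 (progressed over untreated), both resting on Stroma8, and Sfrp1 to 0.19 (progressed over untreated). Sfrp5 turned to 2.03 (progressed over regressed), where the regressed side was 1 UMI in Stroma8 and 0 in Stroma3, Stroma4 and Stroma6. Leaving out Stroma10 turned Wnt6 to -1.10 for regressed over untreated, and Wnt2 to -0.21, Wnt6 to 1.18, Sfrp1 to 0.35 and Sfrp5 to 2.70 for progressed over regressed, where it gave 4 calls of which 0 were among the 4 main ones. Of these, the Sfrp5 value rested on the few regressed UMIs outside Stroma10. For progressed over regressed, thinning and the mean of single-cell CPM each left 2 calls. In Tumor1, thinning left 1 call in place of 4 for regressed over untreated and 0 in place of 3 for progressed over untreated, and adding Tumor2 turned Sfrp1 to 0.07 for progressed over regressed. The count of members higher in stroma in every tumor went from 0 to 1 without Stroma10 (Sfrp4), to 2 with Tumor2 added (Sfrp4 and Wif1) and to 3 without the regressed tumor, and that of members higher in Tumor1 went from 0 to 1 without it. Thinned cells hold fewer UMIs by construction, and for the other settings the cause was not tested. Leaving out the regressed tumor, and leaving out the cell with most UMIs in each group, were chosen after seeing the data. Depth limited Tumor1: 3 UMIs there were 13.6 CPM in the untreated and 19.9 CPM in the regressed tumor, above the stroma levels of Wnt2 and Dkk2, so a lower level of these genes in Tumor1 was not detectable. In the regressed tumor the stroma levels of Wnt5a, Sfrp2 and Wif1 were also below that floor and that of Sfrp4 less than 2-fold above it. A 2-fold lower level of these genes in regressed Tumor1 was not detectable either. Leaving out a replicate was not possible with 1 tumor per group.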

Other observations

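In the clusters that the authors left undefined, whose keratinocyte markers summed to 16501 to 34795 CPM, Sfrp1 was found in all 3 tumors. In Undefined1 it stood at 195 CPM (168 to 224), 142 CPM (114 to 175) and 115 CPM (99.1 to 133) in the untreated, regressed and progressed tumors, and in Undefined2 at 62.6, 74.4 and 97.2 CPM, the opposite order. Wnt6 was 27.6, 41.9 and 38.2 CPM in Undefined1. Sfrp5 in Undefined1 had 40 UMIs in the untreated tumor, 26 of them in 1 cell, and 2 and 1 in the others.

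Pairs of members were counted in the same cells. In Stroma10 of the regressed tumor, thinned cells with a Wnt6 UMI had a Sfrp1 UMI in 22.3% of cases, against 15.6% of the other cells. In Stroma1 of the untreated tumor, 28.9% of thinned cells with Sfrp1 and 19.5% of the others had Sfrp4. In Stroma4, Wnt6 cells of the untreated tumor had Sfrp5 in 13.0% of cases against 15.1%, and those of the progressed tumor in 7.91% against 2.98%. In Tumor1 of the progressed tumor 0 of the 34 thinned cells with Sfrp5 had a Dkk3 UMI, against 5.13% of the rest.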
